A study of Mus musculus with 93 samples.

Results

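Olfactory sensory neurons pass through an immature period between their last division and full function, and the comparison here sets its later step against its earlier one. The later group is 13 cells that the labels call Late Immature Neuron, and the earlier group is 27 cells that they call Early Immature Neuron. Together they are 40 of the 85 cells of the series, which were sorted into 5 stages; for cells sequenced more than once, only the first library entered the comparison. All cells came from C57BL/6 mice with no genotype change or treatment named, and were picked by hand after the olfactory epithelium had been dissociated. RNA with poly(A) tails was copied from an oligo(dT) primer and amplified by PCR before sequencing. The labels give no age, sex or animal, and do not say how a cell's stage was set. Since the stage may have been read from these transcriptomes, stage markers are not independent evidence of it. Each stage therefore counts as 1 sample, and differences are described here without a test.

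The olfactory epithelium makes new sensory neurons throughout life from basal cells. Immature neurons first send an axon towards the olfactory bulb, with growth cone proteins such as Gap43. They later extend cilia into the nasal mucus, where odorant receptors act through a G protein, adenylyl cyclase, a cyclic nucleotide gated cation channel and a calcium activated chloride channel. Olfactory marker protein, Omp, is the standard marker of mature neurons.

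Values are FPKM, fragments per transcript length and library size, as the authors deposited them. A gene's difference is the mean of log2(FPKM + 1) over Late cells minus that over Early cells, so that 1 unit is a factor of 2 for genes well above 1. Of 32640 gene symbols, 4144 were compared, namely those that reached an FPKM of 1 in 50% or more of the Late cells or of the Early cells. Of those, 1347 (32.5%) were higher in Late cells by at least 1 unit and 665 (16.0%) were lower by at least 1. The median difference of all genes compared was 0.41, and 0.51 after each cell was rescaled without mitochondrial genes. No gene put every Late cell above every Early cell, or below (0.0% each way). From the spacing of low values, 1 FPKM over 1 kb corresponded to between 0.991 and 9.06 fragments in Late cells and between 0.736 and 9.83 in Early cells. The share of a cell's FPKM on mitochondrial genes had a median of 55.2% in Late cells and 44.1% in Early cells. In 6 cells sequenced again, the SD between libraries of the same cell had a median of 2.15 log2 units over the genes compared, close to the SD over cells, 2.32 in Late and 2.46 in Early. Values at 0 include common genes in some cells, so such a gene is only listed at 0. PCR copies are not independent molecules, so depth covers counting error only. Intervals on shares of cells take each cell as independent. As no animal is named, they leave out spread between animals and describe these cells only.

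Genes of other cell types were few and uneven. Of the 7 horizontal basal, 11 glial, 18 blood and 13 stromal genes, 0 were compared; of the 16 sustentacular genes, 2 were, and of the 15 gland genes, 1. Sult1d1, a sulfotransferase on the sustentacular list, had 81.2, 283 and 971 in Late cells and 0, 86.6 and 1732 in Early cells, and Cbr2, a carbonyl reductase, had medians of 6.03 in Late cells and 0.97 in Early cells, with 3764 in the Late cell D230 and 2436 in the Early cell D244. The Early cell D357 held the blood cell genes Cd52 and Srgn at 1626 and 2132, and the Late cell D250 held C1qb, Lyz2 and C1qa at 687, 241 and 231. In 4 Late and 3 Early cells at least 2 such genes reached an FPKM of 100, with Sult1d1, Hes1, Apoe, Icam1, Fabp7 and Sparc not counted. Without these cells the transduction median was 3.38 and the growth cone median -2.38. In D250, 92.0% of the FPKM lay on mitochondrial genes. With D250 alone left out, 1550 genes were higher in Late cells by at least 1 unit, against 1347 with all cells. Cell names fall into number ranges, and the labels do not say what the numbers stand for. In D316 to D434 there were 6 Late and 19 Early cells, and within that range the transduction median was 3.99 and the growth cone median -2.41, with Omp at 7.62 and Gap43 at -6.53.

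Both named growth markers were lower, and both named maturation markers higher, in Late cells. Gap43 (mm10 chr16:42248442-42340651), a protein of growing axon tips, had a lowest, median and highest FPKM of 0, 1.19 and 198.8 in Late cells and of 0, 359.9 and 2155 in Early cells, a difference of -5.90. Its SD between repeat libraries of the same cell was 3.4 log2 units, above the median of 2.15 over the genes compared. Stmn1 (chr4:134468320-134473843), which takes microtubules apart, had 0.52, 24.0 and 382 in Late cells and 3.02, 2306 and 4398 in Early cells, a difference of -5.72. No Late cell lay above the Early median for either gene, and the ranges overlapped. Stoml3 (chr3:53488727-53508502), a stomatin-like protein of olfactory cilia, had 1495, 4272 and 8604 in Late cells and 0, 35.4 and 4251 in Early cells, a difference of 6.28. S100a5 (chr3:90608523-90611780), a calcium binding protein of olfactory neurons, had 31.0, 3165 and 22384 in Late cells and 0, 7.24 and 4165 in Early cells, a difference of 6.23. Every Late cell lay above the Early median for both. For S100a5 the Late cells themselves spread widely, with 3 of 13 under 100. All 4 markers thus lay on the side that the stage labels name.

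**Figure D1:**
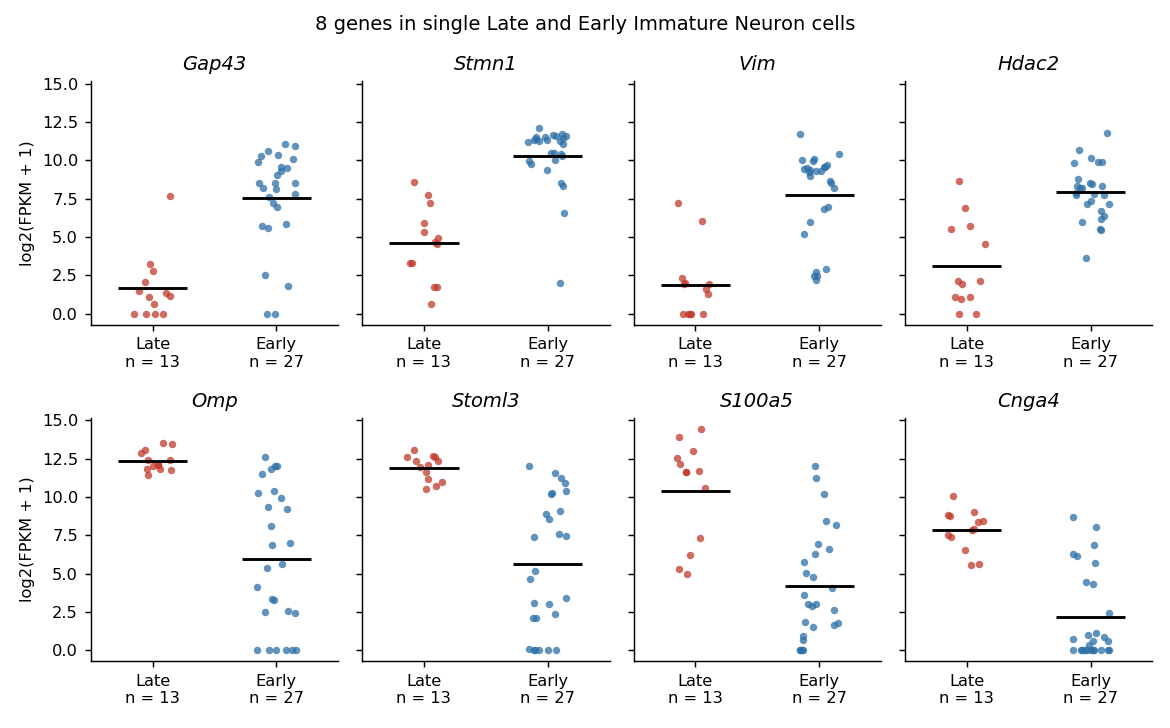
Each point is the log2(FPKM + 1) of a gene in 1 cell, with Late cells on the left (n = 13), Early cells on the right (n = 27) and the stage mean as a black line. Omp and Stoml3 lie in a narrow high band in Late cells and run from 0 upward in Early cells, with means 6.43 and 6.28 apart, while Gap43 and Stmn1 are lower in Late cells.

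Genes of odorant transduction and of mature neurons, here called the transduction list, were higher in Late cells almost throughout. The list also holds Omp, Umodl1 and the named markers Stoml3 and S100a5, so its values are not independent of the stage markers. Of 23 genes listed, 22 were in the table and 21 were compared; 20 of the 21 were higher by at least 1 unit, against 32.5% of all genes compared, and 0 were lower by at least 1. The median difference was 3.47, which is 3.06 above that of all genes; 4 of the genes passed the filter through Late cells alone, and over all 22 the median was 3.32. Gfy was not found under that symbol, and Camk2a was too seldom detected to compare.

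Promoters of transduction genes are shown because these genes had the highest median difference of the 25 lists. RefSeq promoters on GRCm38.p6 were matched by symbol for 16 of the 23 genes of the transduction list (24 promoters) and 13 of the 24 genes of the growth cone list (20 promoters). The letters searched were those known for Ebf factors, TCCCNNGGGA, and for LIM homeodomain factors such as Lhx2, TAATTA; both read the same on both strands. In the 250 bases before the start, TCCCNNGGGA was present in 1 of 24 transduction promoters and 1 of 20 growth cone promoters, and in 0.779% of all 32851 promoters. TAATTA was present in 0 of 24 and in 4 of 20, and in 4.84% of all. The 4 promoters belonged to 2 of the 13 growth cone genes, Dcx and Elavl4. Promoters of the same gene can share bases, so the 4 need not be separate sites and no excess is read. The inner letters CCCNNGGG, which lie inside the longer Ebf motif and were chosen after the longer motif had been counted, were present in 9 of 24 transduction promoters (37.5%) and 3 of 20 growth cone promoters (15.0%). They were present in 11.8% of all promoters, in 15.5% of those of genes compared, in 15.2% of those of the 145 genes (3.5% of all compared) higher in Late cells by at least 3 units (111 matched) and in 14.8% of those of the 34 genes (0.82%) lower by at least 3 (19 matched). Such a match is a description of letters and not a bound site. The 4 promoters below belong to transduction list genes and run from 250 bases before the start to the start, 5′ to 3′ on the gene's strand, with matches to CCCNNGGG in capitals. Cnga2 lies at chrX:71991599-71991848 on the plus strand, Cngb1 at chr8:95306586-95306835 on the minus strand, Gng13 at chr17:25716922-25717171 on the plus strand and Umodl1 at chr17:30954433-30954682 on the plus strand.
Cnga2: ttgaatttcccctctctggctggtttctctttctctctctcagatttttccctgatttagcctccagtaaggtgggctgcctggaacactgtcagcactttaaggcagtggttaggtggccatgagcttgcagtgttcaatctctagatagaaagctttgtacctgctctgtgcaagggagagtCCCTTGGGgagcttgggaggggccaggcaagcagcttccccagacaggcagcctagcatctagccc
Cngb1: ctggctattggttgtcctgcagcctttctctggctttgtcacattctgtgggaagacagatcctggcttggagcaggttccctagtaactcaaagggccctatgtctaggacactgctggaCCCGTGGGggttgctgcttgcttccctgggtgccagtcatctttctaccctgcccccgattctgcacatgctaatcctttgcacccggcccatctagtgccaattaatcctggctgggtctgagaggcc
Gng13: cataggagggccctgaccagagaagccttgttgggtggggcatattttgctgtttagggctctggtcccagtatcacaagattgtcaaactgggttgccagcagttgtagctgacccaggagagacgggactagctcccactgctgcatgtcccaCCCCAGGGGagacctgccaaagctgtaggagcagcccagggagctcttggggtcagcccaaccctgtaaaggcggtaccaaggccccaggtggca
Umodl1: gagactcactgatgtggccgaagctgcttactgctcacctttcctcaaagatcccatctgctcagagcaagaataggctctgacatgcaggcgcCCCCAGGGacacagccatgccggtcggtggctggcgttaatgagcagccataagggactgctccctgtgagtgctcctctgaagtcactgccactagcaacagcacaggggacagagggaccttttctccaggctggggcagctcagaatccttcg
Counted from the start, the match begins at position -66 in Cnga2, -129 in Cngb1 and -156 in Umodl1, and the first of 2 overlapping matches at -95 in Gng13.

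Genes of receptor transport and of the G protein were detected in most Early cells and were higher in Late cells. Rtp1, which carries receptors to the cell surface, had 164, 346.6 and 1212 in Late cells and 1.57, 146 and 638 in Early cells, a difference of 2.04. Rtp2, its relative, had a difference of 2.72, and Ric8b, an exchange factor for the olfactory G protein, one of 2.96. Gnal, the olfactory G protein alpha subunit, had 172.3, 389 and 1243 in Late cells and 0, 59.8 and 869.6 in Early cells, a difference of 4.04. The ranges overlapped for Rtp1 and Gnal, with 8 and 3 of 27 Early cells above the Late median. The beta subunit Gnb1 differed by 1.16 and was detected in all 40 cells. Gnas, a related alpha subunit, was listed at 0.30 or less in all Late cells and at 13.01 or less in Early cells, and several antisense entries overlap it.

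The enzyme that starts the cyclic AMP signal was detected in all Late cells. Adcy3, the cyclase that makes cyclic AMP in olfactory cilia, had 19.0, 60.6 and 354 in Late cells and 0, 1.51 and 96.4 in Early cells, a difference of 4.41. Its neighbour Cenpo overlaps it and had medians of 276 in Late cells and 20.4 in Early cells, and the library kit marks no strand, so reads of the pair cannot be told apart. The same holds for Gnal and Mppe1, whose medians were 64.7 in Late cells and 4.24 in Early cells.

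The cyclic nucleotide gated channel is built of Cnga2, Cnga4 and Cngb1. Cnga2, the main subunit, had 57.2, 483 and 1703 in Late cells and 0, 58.6 and 1059 in Early cells, a difference of 3.99. Cnga4, a modulatory subunit, had 47.3, 242.1 and 1084 in Late cells and 0, 0.54 and 412.1 in Early cells, a difference of 5.69. Cngb1, the other modulatory subunit, had 2.05, 57.5 and 315 in Late cells and 0, 0.36 and 128 in Early cells, a difference of 3.55. All 3 ranges overlapped. Cnga2 was at an FPKM of 1 in 21 of 27 Early cells, but Cnga4 and Cngb1 were so in 11 of 27 each. That is 40.7%, with an exact Clopper-Pearson 95% interval of 22.4 to 61.2 that takes cells as independent.

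Ano2, the calcium activated chloride channel, had 38.3, 179.7 and 248 in Late cells and 0, 2.10 and 256 in Early cells, a difference of 4.24. The phosphodiesterases Pde1c and Pde4a, which break down cyclic AMP, differed by 3.47 and 2.91. Slc24a4, the exchanger that clears calcium, was the least often detected of the genes compared, at an FPKM of 1 in 7 of 13 Late cells and 2 of 27 Early cells, with a difference of 2.51. Slc12a2, the transporter that loads neurons with chloride, was the exception of the list: its medians were 30.9 in Late cells and 29.8 in Early cells, with a difference of -0.49.

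Early cells held these genes to very different extents. At an FPKM of 1, Rtp1, Gnb1 and Slc12a2 were detected in 27 of 27 Early cells, and Gng13, Ric8b and Rtp2 in 24. Omp, Stoml3, S100a5, Gnal and Cnga2 were detected in 21, Pde1c in 19, Pde4a in 16, Ano2 in 15 and Adcy3 in 14. Umodl1 was detected in 12, Cnga4 and Cngb1 in 11, and Slc24a4 in 2. In Late cells 20 of the 22 genes were detected in at least 12 of 13 cells, so the genes differed in how many Early cells held them far more than in how many Late cells did.

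Several of the genes with the largest differences lie outside the transduction pathway, although Omp and Umodl1 are members of the transduction list. Omp, the mature neuron marker, had 2724, 4584 and 11529 in Late cells and 0, 49.4 and 6224 in Early cells, a difference of 6.43; Capn5, which overlaps it, had medians of 0.507 in Late cells and 0 in Early cells. Nrn1l, a neuritin relative, had 317.025, 901 and 1723 in Late cells and 0, 3.64 and 1073 in Early cells, the largest difference of all annotated genes at 6.54. Umodl1, a uromodulin-like extracellular protein, had 183.7, 367 and 1161 in Late cells and 0, 0.58 and 339.8 in Early cells, a difference of 6.04. In each case every Late cell lay above the Early median, and at most 1 Early cell lay above the Late median. Next came the tetraspanin Tspan7 (5.76), the membrane protein Stom, a stomatin (5.40), Plekhb1, which has a pleckstrin homology domain (5.20), and Fam213b (4.85). The neuropeptide precursor Cartpt differed by 4.86 and secretagogin, the calcium binding protein Scgn, by 4.81. These last genes were uneven among Late cells, with Cartpt from 0.82 to 2125 and Scgn listed at 0 in the lowest and at 665 in the highest cell.

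Genes of the growth cone were lower in Late cells, with named exceptions. Of 24 genes listed, 22 were compared; 15 were lower by at least 1 unit, against 16.0% of all genes compared, and 2 higher, with a median difference of -2.40, which is -2.81 relative to all genes. Of the 22, 2 passed the filter through Early cells alone and 1 through Late cells alone, and over all 24 members the median was -2.11. Stmn2, a stathmin of growth cones, had 0.63, 51.6 and 264.7 in Late cells and 1.78, 848 and 1765 in Early cells, a difference of -4.34. Marcks and Marcksl1, which bind actin at the membrane, differed by -4.44 and -4.11, and Dpysl3, a collapsin response mediator, by -4.21. Basp1, another membrane protein of growth cones, was at an FPKM of 1 in 1 of 13 Late cells and 20 of 27 Early cells, with a difference of -3.78. Members also differed in direction. The thymosin Tmsb4x, which binds free actin, had medians of 9282 in Late cells and 3420 in Early cells (difference 1.05), while its relative Tmsb10 had 15.1 in Late cells and 145 in Early cells (difference -3.10). Stmn3 (-0.37), Ncam1 (-0.15), Dbn1 (-0.05) and Elavl3 (-0.38) differed by less than 1 unit.

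Cytoskeletal genes differed by isotype. Of 25 genes listed, 17 were compared, with 2 higher and 6 lower by at least 1 unit and a median of -0.51. Of all genes compared, 32.5% were higher and 16.0% lower by that much. Of the 17, 3 passed the filter through Early cells alone and 1 through Late cells alone. Tubb5, a beta tubulin, had 8.29, 103 and 394.4 in Late cells and 61.9, 1651 and 3618 in Early cells, a difference of -3.44. Tubb2b, another, differed by -4.07 and the microtubule binding protein tau, Mapt, by -3.58. Neuronal Tubb3 (-0.50) and Tuba1a (-0.11) differed by less than 1 unit, and Tubb4b was higher by 2.27. Alpha tubulin genes are near-identical copies, so the split of reads among them is uncertain.

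Other leading lower genes were of mixed function. Vim, an intermediate filament protein, had 0, 2.11 and 148 in Late cells and 3.61, 607 and 3381 in Early cells, a difference of -5.88. Qdpr, which regenerates tetrahydrobiopterin, had 0, 6.39 and 429.8 in Late cells and 0.83, 473 and 2499 in Early cells, a difference of -5.42. No Late cell lay above the Early median of either gene. Fabp5, a fatty acid binding protein, reached no more than 2.96 in any Late cell, against a median of 32.3 and a highest value of 651 in Early cells (difference -4.21). Crabp1, which binds retinoic acid, differed by -3.90, with 3 of 13 Late cells above the Early median of 24.5.

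**Figure D2:**
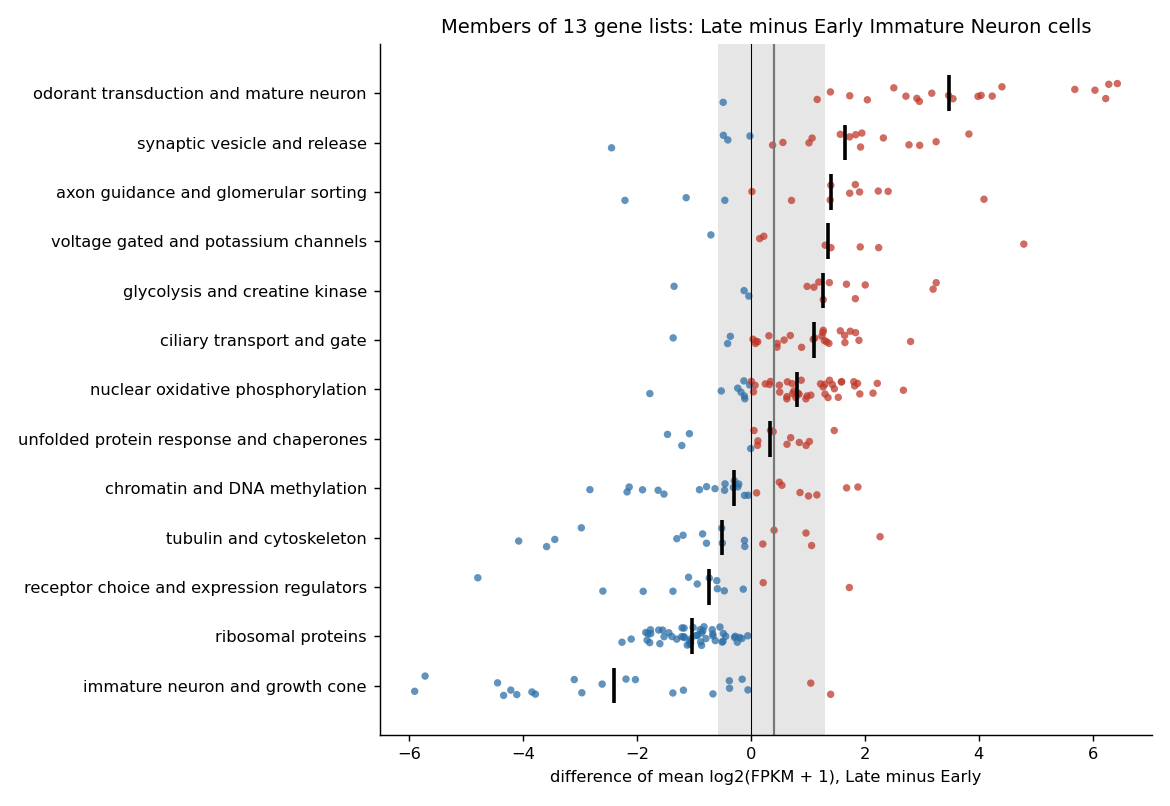
Each point is a gene compared, placed by its difference of mean log2(FPKM + 1), Late minus Early, in 13 gene lists; red points are above 0 and blue points below. Black bars are list medians, the grey line is the median of all genes compared (0.41) and the grey band their quartiles (-0.58 to 1.30); transduction stands highest at 3.47 and the growth cone list lowest at -2.40.

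Among regulators of receptor choice, the deacetylase Hdac2 had the largest difference. Hdac2 had 0, 3.34 and 395 in Late cells and 11.1, 237 and 3563 in Early cells, a difference of -4.79. Its partners in the CoREST complex had lower means too. Rcor1 differed by -2.60 and the demethylase Kdm1a, which takes part in starting receptor expression, by -1.89. Kdm1a was at an FPKM of 1 in 4 of 13 Late cells and 17 of 27 Early cells. Factors that bind receptor enhancers were not alike. Lhx2 had medians of 128 in Late cells and 145 in Early cells (difference -0.13), and Ebf1, Ebf2 and Ebf3 differed by -0.59, -0.47 and -0.60. Emx2 was lower by more than 1 unit, with medians of 53.9 in Late cells and 137 in Early cells (difference -1.09). Ebf4 was the only listed regulator higher by at least 1 unit, at 1.73. Of 25 regulators listed, 13 were compared, with 1 higher and 5 lower by at least 1 and a median of -0.73. Of all genes compared, 32.5% were higher and 16.0% lower by that much. Of the 13, 2 passed the filter through Early cells alone.

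Of 38 chromatin genes, 25 were compared, with 4 higher and 6 lower by at least 1 unit and a median of -0.29. Of all genes compared, 32.5% were higher and 16.0% lower by that much, so the lower count of the list lies near the background. Of the 25, 3 passed the filter through Early cells alone and 2 through Late cells alone. Suz12 and Ezh2, subunits of Polycomb repressive complex 2, differed by -2.17 and -1.90, while their partner Eed differed by -0.21. The histone variant genes Hist3h2ba and H2afv differed by -2.82 and -2.13, and the nucleosome binding protein Hmgn3 by 1.88. Of 20 precursor genes only 3 were compared, and all 3 were lower by at least 1: Insm1 (-2.61), Hes6 (-2.32) and Sox11 (-1.30). Of these, 2 (Insm1 and Sox11) passed the filter through Early cells alone, so their count is not read. Over the 18 precursor genes above 0 in any cell, 9 were lower by at least 1 and 0 higher. The shares given for genes compared do not cover this wider set. The median of the 18 was -0.83, against -0.008 over all genes above 0 in any cell.

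In 4 pairs of related genes the Late minus Early differences had opposite signs; the pairs were chosen after their values had been seen. Gng13, the G protein gamma subunit of mature olfactory neurons, had 304, 1024 and 2538 in Late cells and 0, 108 and 1586 in Early cells, a difference of 3.17. Gng8, the gamma subunit of immature neurons, had 0, 1.38 and 18.3 in Late cells and 0, 29.2 and 989.8 in Early cells, a difference of -2.96. Gng13 had the higher FPKM of the pair in 13 of 13 Late cells and 19 of 27 Early cells, and both genes were at an FPKM of 1 in 7 Late cells and 18 Early cells. Tubb4b exceeded Tubb2b in 13 of 13 Late cells and 15 of 27 Early cells. Stmn4, a stathmin, exceeded Stmn1 in 4 of 13 Late cells and 0 of 27 Early cells, and Ebf4 exceeded Ebf1 in 9 of 13 Late cells and 8 of 27 Early cells.

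**Figure D3:**
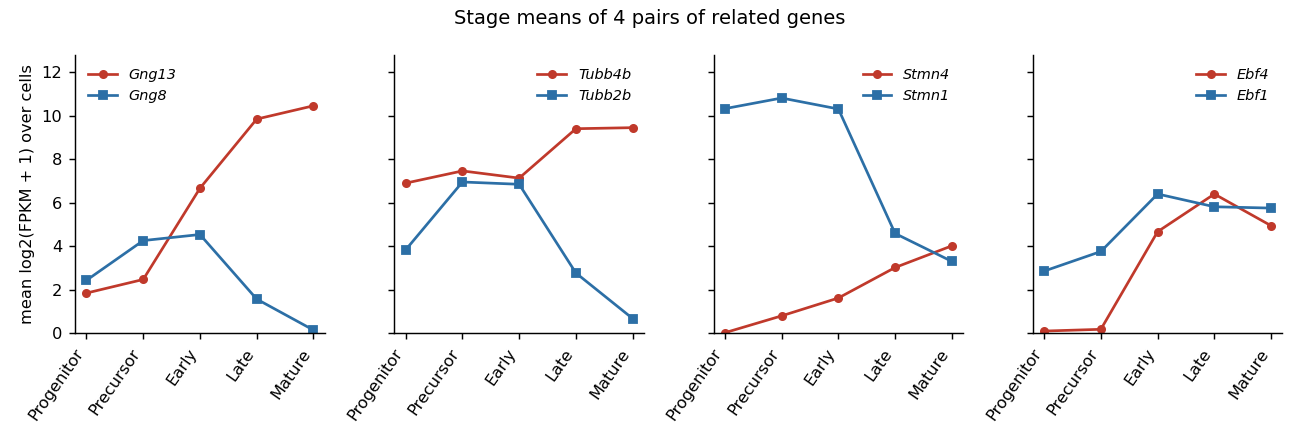
Mean log2(FPKM + 1) over the cells of each of the 5 stages for 4 gene pairs; each point is a stage mean over 11, 9, 27, 13 and 25 cells from left to right. From Early to Late, Gng8 means differ by -2.96, Tubb2b by -4.07 and Stmn1 by -5.72, while Gng13, Tubb4b, Stmn4 and Ebf4 are higher in Late cells.

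Genes of ciliary transport were higher by smaller amounts. Of 40 genes listed, 28 were compared, with 15 higher and 1 lower by at least 1 unit, against 32.5% and 16.0% of all genes compared. The median was 1.11, which is 0.70 above all genes. As 10 of the 28 passed the filter through Late cells alone, the median over all 39 in the table was lower, at 0.58. Bbs5, a subunit of the BBSome that carries membrane proteins in cilia, had medians of 69.8 in Late cells and 0.47 in Early cells, a difference of 2.80. Ift122, of the intraflagellar transport complex, and Wdr34, of its dynein motor, differed by 1.90 and 1.75. The motor Kif3a, which carries cargo towards the ciliary tip, differed by -1.36.

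Axon guidance genes differed in both directions. Of 30 listed, 13 were compared, with 8 higher and 2 lower by at least 1 unit, against 32.5% and 16.0% of all genes compared. The median was 1.40. Of the 13, 6 passed through Late cells alone and 3 through Early cells alone, and over all members above 0 the median was 0.32. Kirrel2, an adhesion molecule that sorts axons into glomeruli, had 0.22, 96.9 and 479 in Late cells and 0, 0.10 and 162 in Early cells, a difference of 4.09. The ephrins Efna3 and Efna5 differed by 2.41 and 2.24. Nrp1, a receptor for semaphorins, had medians of 0.13 in Late cells and 14.1 in Early cells (difference -2.21), and L1cam, an axonal adhesion molecule, differed by -1.13.

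Synaptic genes were mostly higher in Late cells. Of 30 listed, 18 were compared, with 12 higher and 1 lower by at least 1 unit, against 32.5% and 16.0% of all genes compared. The median was 1.65. Of the 18, 8 passed through Late cells alone, and over all members above 0 the median was 0.72. Snap25, a vesicle fusion protein, had 95.6, 512 and 1918 in Late cells and 0, 57.3 and 1220 in Early cells, a difference of 3.83. Slc17a6, a vesicular glutamate transporter, had 1.87, 51.2 and 138 in Late cells and 0, 0.23 and 75.8 in Early cells, a difference of 3.25. Every Late cell lay above the Early median for both. Stx1a, a syntaxin of the same fusion machinery, was lower, with medians of 3.15 in Late cells and 55.4 in Early cells (difference -2.44). Among channels, 8 of 27 were compared and 5 were higher by at least 1, against 32.5% of all genes compared. Of the 8, 3 passed through Late cells alone, and the median of 1.36 was 0.19 over all members above 0 in any cell. The potassium channel Kcnc4 had 47.7, 211 and 343.7 in Late cells and 0, 1.18 and 232.1 in Early cells, a difference of 4.79.

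Nuclear genes of the respiratory chain were modestly higher in Late cells. All 48 listed were compared; 40 differences were above 0, against 60.7% of all genes compared, and 8 were below. Of these genes 19 were higher and 1 lower by at least 1 unit, against 32.5% and 16.0% of all genes compared. The median was 0.82, which is 0.41 above all genes. Ndufv3, a complex I subunit, had 89.8, 576 and 1271 in Late cells and 4.68, 104 and 556 in Early cells, a difference of 2.68. Cox5a, a complex IV subunit, differed by 2.14, and Uqcr11, of complex III, by -1.77. Of 20 glycolytic genes 13 were compared, with 9 higher and 1 lower by at least 1, against the same shares of all genes. Their median was 1.27. Aldoa and Pgam1 differed by 3.25 and 3.20, and Pgk1 by -1.35.

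Ribosomal protein genes were lower as a group. Of 51 symbols on the ribosomal list, 50 were in the table and compared: 46 Rpl and Rps genes, Fau, the ribosome scaffold Gnb2l1, the elongation factor Eef1a1 and Tpt1. All 50 differences were below 0, against 39.3% of all genes compared. By at least 1 unit, 26 were lower and 0 higher, against 16.0% and 32.5% of all genes. The median was -1.03, which is -1.44 relative to all genes; scaled by median ratios, 49 were below 0 and 1 above. The 46 Rpl and Rps genes alone were all below 0, with 23 lower by at least 1 and a median of -0.98. Rplp0, a stalk protein, had 2.23, 148 and 400.5 in Late cells and 24.3, 642 and 3658 in Early cells, a difference of -2.26. Rps16 had 8.05, 241.5 and 800.5 in Late cells and 50.3, 819 and 1889 in Early cells, a difference of -1.84. No Late cell lay above the Early median of either gene, and the ranges overlapped. Eef1a1 differed by -1.52 and Tpt1 by -0.48. These genes have many processed copies in the genome, so their counts are uncertain, and in the 2 Late and 6 Early cells numbered D168 to D205 the list median was -0.15.

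**Figure D4:**
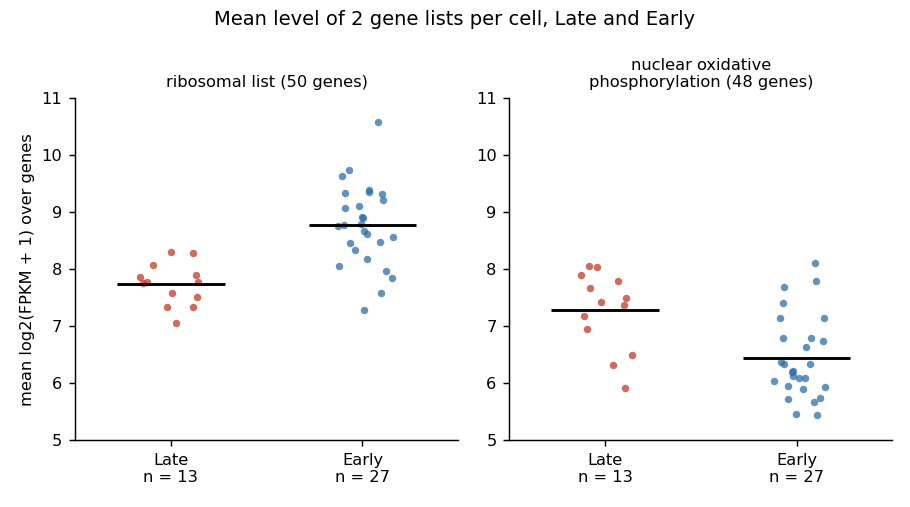
Each point is a cell's mean log2(FPKM + 1) over the 50 genes of the ribosomal list (left) or 48 nuclear respiratory chain genes (right), Late cells left of Early cells, with stage means as black lines. Ribosomal means span 7.06 to 8.30 in Late cells and 7.29 to 10.58 in Early cells, where D357, which holds blood cell genes, sets the upper end and the next highest is 9.74; respiratory means span 5.92 to 8.05 in Late cells and 5.45 to 8.10 in Early cells.

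Stress response and cell cycle lists held few differences beyond the background. Of 26 unfolded protein response genes, 15 were compared, with 2 higher and 3 lower by at least 1, against 32.5% and 16.0% of all genes compared. Their median was 0.34, near that of all genes. Hspa5, an endoplasmic reticulum chaperone, differed by 1.46, Atf4 by -1.08 and Atf5, which is known to take part in the feedback of receptor choice, by 0.85. Among immediate early genes 4 of 17 were compared; Ier2 differed by 2.34 and Dusp1 by -2.30, with a list median of -0.01. Of 30 cell cycle genes 4 were compared, and Cks2, a cyclin dependent kinase subunit, was higher in Late cells, with 0, 98.2 and 226 in Late cells and 0, 1.25 and 324 in Early cells, a difference of 3.06. Its stage means ran 8.07, 4.46, 2.01, 5.07 and 2.69 from Progenitor to Mature Neuron. Of 19 housekeeping genes 15 were compared, with a median of 0.31.

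The stages met in a few cells. The mean level of the 22 transduction genes in the table was 7.35 to 8.81 in Late cells and 2.33 to 7.52 in Early cells. The Early cells D192 and D425 lay above the lowest Late cell, and the Late cells D205 and D334 lay below the highest Early cell. The mean level of the growth cone genes was 2.35 to 4.17 in Late cells and 1.99 to 7.10 in Early cells, and the Early cell D357 was the only one below the highest Late cell. Transduction genes stood above growth cone genes in 13 of 13 Late cells and 8 of 27 Early cells. Omp and Gap43 both reached 100 FPKM in 1 of 13 Late cells (7.69%, exact interval 0.195 to 36.03), the cell D199. They did so in 10 of 27 Early cells (37.0%, 19.4 to 57.6). Both intervals take cells as independent. The authors' Pseudotime score, which has no unit, ran from 33.6 to 48.6 over the Late cells and from 10.1 to 35.4 over the 25 Early cells that have one. On that score 3 Early cells (D192, D202, D425) lay above the lowest Late cell and 3 Late cells (D205, D199, D334) below the highest Early cell.

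**Figure D5:**
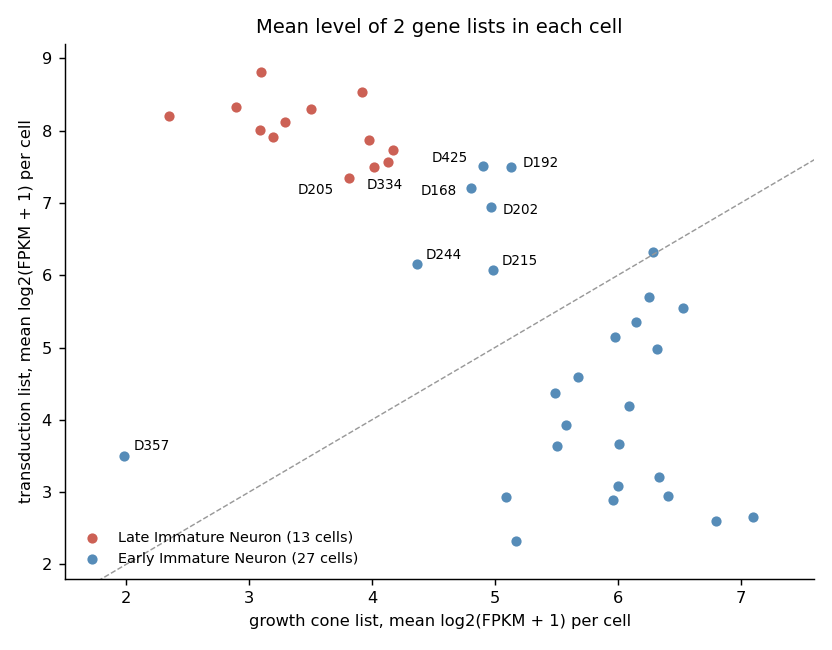
Each point is a cell, placed by the mean log2(FPKM + 1) of its growth cone genes (24 genes, horizontal) and its transduction genes (22 genes, vertical); the dashed line marks equal levels. Late cells lie at transduction levels of 7.35 and above, and D192, D425, D168 and D202 are the Early cells nearest to them. D357 stands apart with a growth cone level of 1.99, against 4.37 or more in the other Early cells. Its transduction level of 3.50 lies within their range (2.33 to 7.52).

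Stage means place the comparison among the 5 stages, whose Late cells are the same here as above. As stage means of log2(FPKM + 1), Omp was 5.94 in Early, 12.37 in Late and 12.86 in Mature Neuron cells, and Stoml3 was 5.62, 11.90 and 12.22. Hdac2 was 7.04 in Progenitor, 7.03 in Precursor, 7.92 in Early, 3.12 in Late and 3.16 in Mature Neuron cells. Vim and Gap43 had their highest stage mean in Early cells: Vim was 3.60, 4.65, 7.75, 1.87 and 1.21 over the 5 stages, and Gap43 was 0.76, 4.51, 7.54, 1.64 and 0.16. Cartpt and Scgn had their highest stage mean in Late cells, with 8.13 and 5.70 there and 7.19 and 4.23 in Mature Neuron cells.

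Odorant receptor genes differ from cell to cell, and 0 Olfr symbols passed the filter. The top receptor of a cell had 9.03, 2152 and 10652 in Late cells and 3.39, 367.5 and 9610 in Early cells, and the number of receptor genes at an FPKM of 100 was a median of 1 in both stages.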

How the data were processed

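RNA of single mouse olfactory cells was measured in 93 libraries of 85 cells. Per the submitters' processing notes, the tools were Cufflinks 2.2.1, TopHat2 2.0.14, CASAVA 1.8.2, cutadapt 1.2.1 and Trim Galore, and the build was mm10; what each did, and whether libraries were scaled to each other, is not given in these sources. The authors deposited FPKM for 32975 entries, a receptor table with a Pseudotime score without unit, and an annotation with genomic positions (other values). Entries were named by the deposited annotation; 172 symbols had several entries, of which the highest FPKM was taken.

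Means of log2(FPKM + 1) were subtracted, Late minus Early, with Python 3.11.15, pandas 2.3.3 and numpy 2.4.6, for genes at 1 FPKM in 50% or more of the Late or of the Early cells; figures were drawn with matplotlib 3.10.9. No p-value or standard error was computed. With the files holding no counts, depth was recovered from the spacing of low FPKM values over 2282 genes. A list's mean level in a cell uses all its genes in the table. Named genes were the 12 highest and the 12 lowest annotated genes with the same sign in cells D316 to D434, the 4 members (or fewer) of every list that differed most, and a set of followed genes. Other list members, 6 further lists and the gene pairs were named after their values were seen, and the members and lists as a whole were chosen with earlier results of these data known. On simulated data for this comparison, over 4144 genes, genes moved by 1 unit were recovered at 1.0 on average (right sign for 90.0%), those moved by 3 at 2.79 and those moved by -3 at -2.22; 18.6% of unmoved genes passed 1 unit.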

Additional observations from a re-analysis of the deposited data

How the results depend on the processing

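No paired analysis was possible because the cells of the groups share no replicate numbers. Of 315 summary values outside leaving out 1 cell, 305 stayed within 1 SD over cells (medians) or 1.5 times (counts). No median of at least 1 unit in size took another sign, but 12 values over 5 smaller medians did: all genes compared (-0.008), cell cycle (-0.14) and unfolded protein response (-0.0043) with no filter, unfolded protein response (-0.081) and housekeeping (-0.085) with medians over cells, and immediate early genes (0.049 to 2.02, against -0.01) in 7 settings. The counts of genes higher and lower by at least 1 unit were 549 and 278 with a pseudocount of 10, and the lower count was 1065 at detection in 20% of cells, 1107 with no filter and 1006 with a mean log2 of at least 1 as the filter. The higher count was 2122 in cells D316 to D434. In cells D168 to D205 (2 Late cells) the counts were 3360 and 1266, the ribosomal median was -0.15 and the immediate early median 2.02. Single genes reversed there: Bbs2 (-0.40), Wdr34 (-0.80), Efna5 (-2.34), Hspa5 (-0.059), Ndufb2 (-2.37), Ckb (-0.35), Rpl12 (0.54), Dusp1 (3.37), Sult1d1 (-0.39), Sdha (-1.75) and Ddit3 (-0.89). Cbr2 reversed to -0.41 in cells D316 to D434 and to -0.067 without cells that hold genes of other cell types, Sult1d1 not counted. The cause was not tested. Leaving out each of 40 cells in turn gave 1312 to 1550 higher and 612 to 731 lower genes, a transduction median of 3.30 to 3.61, a growth cone median of -2.59 to -2.17 and an immediate early median of -0.15 to 0.73. The transduction and growth cone medians were 2.25 and -1.49 with a pseudocount of 10, and 2.29 and -1.67 in cells D168 to D205. The ciliary median was 0.50 with a pseudocount of 10, and the axon guidance median 0.40 at detection in 20% of cells. The filters without Sult1d1 and by mean level, and the fixed gene set in D316 to D434, were chosen after seeing the data. A stage is 1 sample with no animal named. In the 6 cells sequenced again, most with high mitochondrial shares, repeat libraries of the same cell differed about as much as cells do. Small differences of single genes therefore cannot be read.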

Other observations

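Lists chosen after the values had been seen are given here as descriptions, beside 32.5% of all genes compared that were higher by at least 1 unit and 16.0% that were lower. Genes of motile cilia, which build the axoneme, were higher in Late cells although mammalian olfactory cilia are known to be immotile. Of 50 genes, 19 were compared and all 19 were higher by at least 1; 15 of them passed the filter through Late cells alone, so their count is not read. Of the 42 genes above 0 in any cell, 22 were higher and 0 lower by at least 1. Their median was 1.19, against -0.008 over all genes above 0 in any cell, a wider set than the shares above cover. Pifo, of the ciliary base, had medians of 60.9 in Late cells and 0.256 in Early cells (difference 4.68), Enkur, an axonemal protein, had medians of 114 in Late cells and 2.27 in Early cells (difference 3.27), and Rsph9, of the radial spoke, 212 in Late cells and 2.94 in Early cells (difference 2.88). Of the 12 dynein heavy chain genes of the Dnah family on the list, 0 were compared.

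Splicing proteins and lysosomal genes differed in opposite directions. Of 30 splicing genes 23 were compared, with 21 below 0 and 10 lower by at least 1, against 39.3% and 16.0% of all genes. Their median was -0.89. Lsm4, of the Sm-like ring, differed by -2.48 and Snrpg by -2.12. Of 30 lysosomal genes 13 were compared, with 11 higher and 0 lower by at least 1 and a median of 1.91, but 9 passed through Late cells alone and over all 30 the median was 0.34. The cathepsin gene Ctsb had medians of 167 in Late cells and 11.3 in Early cells (difference 3.80). Of 17 genes of the vacuolar proton pump 16 were compared, with 9 higher and 1 lower by at least 1 and a median of 1.10. Of 25 antioxidant enzyme genes 17 were compared, with 6 higher and 3 lower by at least 1 and a median of 0.66. Both counts lie near the shares of all genes compared, 32.5% and 16.0%. Of the 17, 6 passed through Late cells alone, and over all 25 the median was 0.15. Nfe2l2, a factor of the antioxidant response, had medians of 163 in Late cells and 1.72 in Early cells (difference 4.33), and Prdx1, a peroxiredoxin, differed by 3.81. Of 8 sterol synthesis genes compared, Hmgcs1 differed by -2.93 and Fdps by -2.54, with a median of -1.24 that was -0.18 over all 22 genes in the table. Of the 8, 2 passed through Early cells alone and 1 through Late cells alone.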
